A study of Mus musculus with 2 samples.

Results

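Calm2 and Calm3 are among the genes for calmodulin, and Camk4 is the gene for calcium/calmodulin-dependent protein kinase IV. These 3 genes, listed by name, were followed through the germ cells and somatic cells of mouse testis, out of 30052 gene symbols in the 2 libraries of the series (29520 genes in 1 library and 28743 in the other). All 3 were present in both. They were chosen by name with their counts along germ cell stages and their ratios between these libraries already known, so the values below describe those libraries and carry no test.

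Calmodulin is a small calcium sensor. On binding calcium it wraps around its target proteins and switches on kinases, the phosphatase calcineurin, the PDE1 phosphodiesterases and calcium pumps. CaMKIV is one of those kinases, and it is known for phosphorylating transcription factors of the CREB and CREM family. In the testis, CREM drives a large program of genes in round spermatids, the haploid cells formed after meiosis. Transcription stops in elongating spermatids as protamines replace histones, and the RNA seen there is largely stored RNA. The Camk4 gene is also known to give calspermin, a testis RNA that starts inside the gene and shares its 3′ end, so a Camk4 count here may come from either transcript.

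Dissociated whole testes of adult mice were measured by droplet single-cell RNA sequencing, as 1 library of a wild-type (WT) testis and 1 library of an Nsun7 knockout testis. The deleted gene encodes a protein of the NOL1/NOP2/SUN family, and the series concerns its part in the sperm tail. The sources used here do not give the strain, the kind of deletion, the exact ages or the number of animals behind each library. With 1 library per genotype, a difference between genotypes cannot be told apart from a difference between 2 preparations, and the intervals below are 95% intervals that cover counting error only.

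The WT matrix held 220247156 counts in 16376 barcodes and the knockout matrix 210531446 counts in 16837. Filtering kept 15139 cells of WT (median 8723 counts) and 13869 of the knockout library (median 12020). Nsun7 stood at 174 CPM (counts per 1000000 counts) over all kept WT cells and at 40.9 CPM over the knockout cells, and in round spermatids at 196 and 35.1 CPM. Its reads were reduced in the library labelled knockout and were not absent. Elongating spermatids made up 30.2% of kept cells in WT and 53.0% in the knockout library, and late spermatocytes 24.3% and 9.68%. Barcodes are running numbers in both files, so the 2168 names found in both libraries are no sign of shared cells, and 0 of these pairs had equal totals.

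Calm2 (ENSMUSG00000036438.13) lies on the minus strand of chromosome 17, bases 87433412 to 87446935 of GRCm38. Calm3 (ENSMUSG00000019370.10) lies on the minus strand of chromosome 7, bases 16915379 to 16924114. No other annotated gene overlaps either. The principal Calm2 and Calm3 transcripts each have 6 exons and 450 coding bases. These differ at 78 bases in 76 of 150 codons, and in 0 codons by amino acid, so both genes make the same protein from different RNA. The parts after the stop codon, where reads primed at the poly(A) tail mostly fall, are 615 bases long in Calm2 and 1569 in Calm3.

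Of the 3 genes, Calm3 was matched in the RefSeq promoter table. Its 250 bases before the RefSeq start are 69.2% G and C, against a median of 52.4% over 32851 promoters of the table. The cyclic AMP response element, to which CREM and CREB bind, was searched as the full site TGACGTCA and as the core TGACG, on both strands (a full site holds the core). Calm3 has 0 full sites, which 1.55% of promoters have, and 1 core, which 17.8% have. It is shown because CaMKIV acts on the factors that bind this element. The bases are printed 5′ to 3′ on the minus strand with the core in capitals, from chr7:16924074-16924103 of GRCm38.p6.
Calm3 core match: gccgcacgagccTGACGcgaagggatccgt
The match begins 59 bases before the RefSeq start. The GENCODE M21 start of the gene lies 82 bases further upstream than the RefSeq start, and the match begins 23 bases after it. A match of 5 letters is a description and not a bound site.

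Cells were clustered without the 3 genes and without Nsun7, and clusters were named from marker genes. Spermatogonia-like cells (cluster 14) held Dmrt1 and Uchl1. Early spermatocyte-like cells were clusters 13, with Prdm9 and Dmc1, and 15, with Sycp3 and Piwil1. Piwil1 is on the late spermatocyte marker list and stood at 1322 CPM in cluster 15, against 574 CPM in cluster 7. The early label of cluster 15 is therefore uncertain. Late spermatocyte-like cells were clusters 7, 6 and 5, where cluster 5 also held the spermatid genes Acrv1 and Spaca1. Round spermatid-like cells were clusters 1, 21 and 9, and elongating spermatid-like cells were 8 clusters led by protamine and transition protein RNA. Sertoli-like, Leydig-like, stroma-like and macrophage-like cells were found as 1 cluster each. Free RNA in the droplets was estimated in each class from 4 Leydig cell genes (Cyp11a1, Cyp17a1, Hsd3b1 and Star), whose level outside Leydig-like cells gives the share of library-wide RNA. That share ran from 5.67% to 13.4% over germ cell classes. The level it predicts for each of the 3 genes is given beside the measured one as predicted free RNA. For the genes of the lists below no such level is given.

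Calm2 RNA was a feature of the cells before and during meiosis. In WT it stood at 1032 CPM in spermatogonia (95% interval 1008 to 1055), 2521 CPM in early spermatocytes (2490 to 2552), 1213 CPM in late spermatocytes (1205 to 1221), 114 CPM in round spermatids (111 to 118) and 64.0 CPM in elongating spermatids (62.1 to 66.0). The knockout library gave 944, 988, 982, 51.1 and 15.9 CPM in the same order. In both libraries the level was highest before the meiotic divisions and lowest in elongating spermatids. The step from late spermatocytes to round spermatids was 10.6-fold down in WT (10.3 to 10.9) and 19.2-fold down in the knockout library (18.1 to 20.4). That fall passed 4-fold, as it did for 4.99% of all genes measured in WT (mean 50 CPM or more) and for 10% of those in the knockout library.

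The fall was stepwise over clusters. Calm2 was at 644 CPM in the Prdm9 and Dmc1 cluster 13 of WT, below the 1032 CPM of spermatogonia. It rose to 3856 CPM in cluster 15, which has the highest Piwil1 level. Cluster 15 gave 22219 of the 24862 Calm2 counts of WT early spermatocytes. The level then went to 2451 CPM in cluster 7, 1192 CPM in cluster 6 and 338 CPM in cluster 5. Round spermatid clusters 1, 21 and 9 held 133, 90.0 and 73.0 CPM. In the knockout library the same clusters from 13 to 9 gave 539, 3070, 1885, 1169, 212, 90.9, 46.1 and 22.7 CPM. The order of these 8 clusters was the same in both libraries, with the top in cluster 15 and the bottom in cluster 9. Beyond this point a large part of the WT counts was at the level of predicted free RNA. Elongating spermatids measured 64.0 CPM with 47.7 CPM predicted. Cluster 10 measured 76.0 CPM with 46.1 CPM predicted, and cluster 16, with the most Prm2, measured 72.0 CPM with 68.6 CPM predicted.

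**Figure D1:**
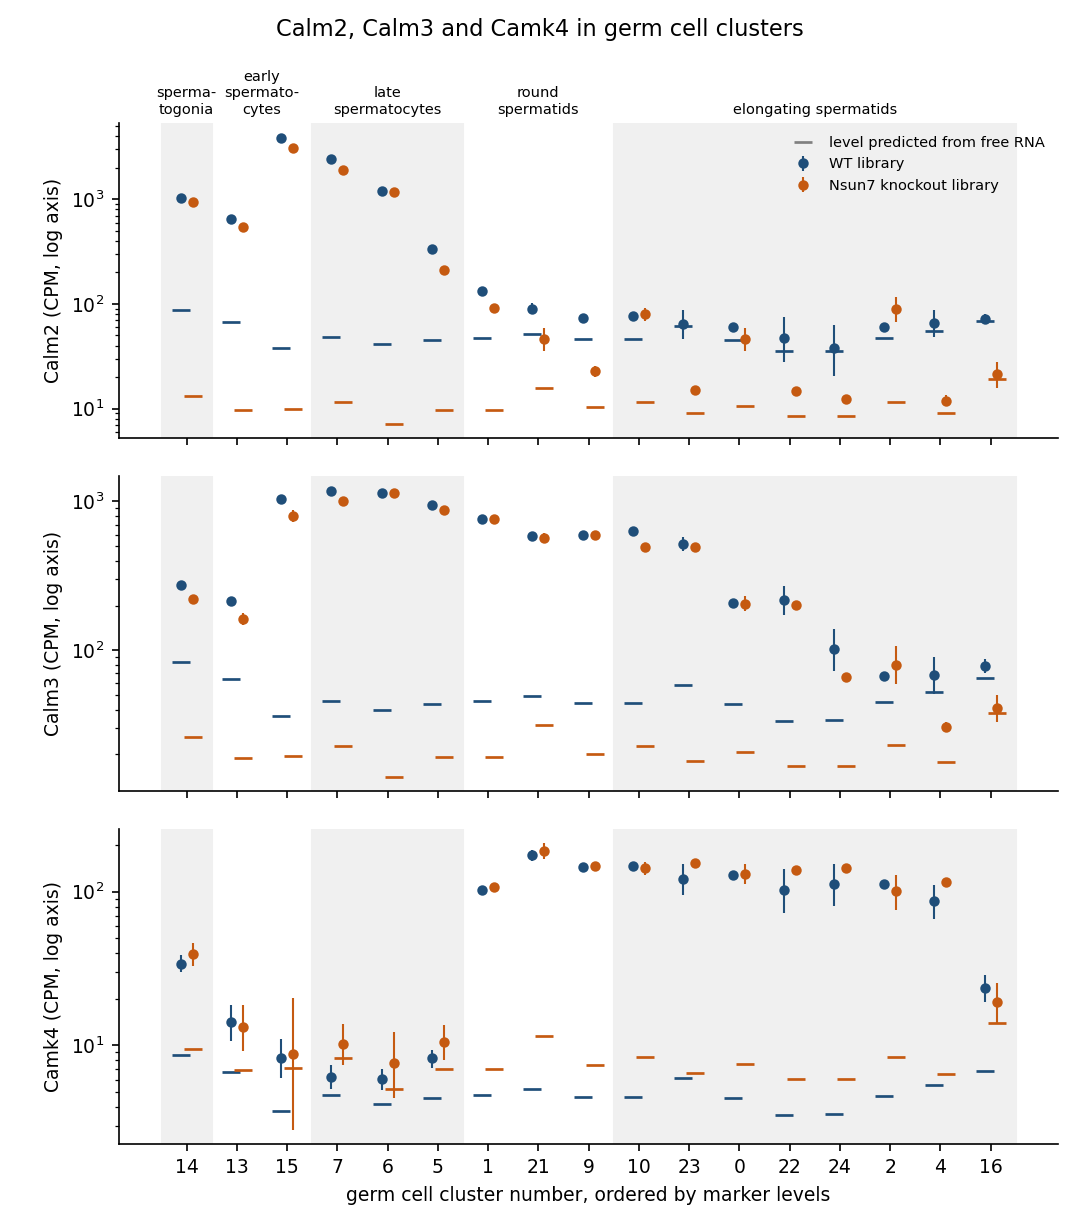
Level of each gene in CPM (log axis) in the 17 germ cell clusters, ordered by marker levels, with WT in blue and the knockout library in orange; bars are 95% Poisson intervals and dashes the level predicted from free RNA. Calm2 peaks in cluster 15 and falls to 133 and 90.9 CPM in cluster 1, Calm3 stays between 572 and 1170 CPM from cluster 7 to cluster 9, and Camk4 goes from under 11 CPM in cluster 5 to over 100 CPM in cluster 1.

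Calm3 rose at the same step between clusters as Calm2 and stayed high for longer. In WT it stood at 276 CPM in spermatogonia (264 to 288), 701 CPM in early spermatocytes (684 to 717), 1072 CPM in late spermatocytes (1064 to 1079), 708 CPM in round spermatids (699 to 716) and 243 CPM in elongating spermatids (239 to 247). The knockout values were 220, 275, 976, 660 and 215 CPM. By cluster, Calm3 went from 214 CPM in cluster 13 to 1047 CPM in cluster 15 and 1170 CPM in cluster 7 of WT. The same clusters of the knockout library held 163, 795 and 1015 CPM. Late spermatocytes were the highest class in both libraries, and round spermatids came next in the order, within the interval of early spermatocytes in WT and apart from them in the knockout library. From late spermatocytes to round spermatids Calm3 went down by 1.51-fold in WT (1.49 to 1.54) and 1.48-fold in the knockout library, where Calm2 went down by over 10-fold in both.

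The drop of Calm3 came during elongation. Clusters 10 and 23, which have the lowest Prm2 levels of the elongating class, held 631 and 516 CPM in WT and 498 and 493 CPM in the knockout library. Clusters 0 and 22 held 207 and 216 CPM in WT and 205 and 201 CPM in the knockout library. Cluster 16 was at 78.8 CPM with 65.5 CPM predicted as free RNA in WT, and at 40.9 CPM with 38.1 CPM predicted in the knockout library. Calm3 counts thus ended close to free RNA in both libraries.

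The balance of counts between Calm2 and Calm3 moved from Calm2 to Calm3. The share below covers these 2 genes only and leaves out any other calmodulin gene. Calm3 made up 21.1% of Calm2 plus Calm3 counts in WT spermatogonia (exact Clopper-Pearson 95% interval 20.3 to 21.9), 21.8% in early spermatocytes, 46.9% in late spermatocytes and 86.1% in round spermatids (85.7 to 86.5). In the knockout library the shares were 18.9%, 21.8%, 49.9% and 92.8% (92.4 to 93.2). Within the late spermatocyte class the share climbed from 32.3% in cluster 7 to 48.8% in cluster 6 and 73.6% in cluster 5 of WT, and from 35.0% to 49.5% and 80.5% in the knockout library. The changeover thus lay inside the late spermatocytes of both libraries, and these are shares of counts of the 2 genes, not of calmodulin protein. In elongating spermatids the share was 79.1% in WT and 93.1% in the knockout library, where WT Calm2 counts were mostly at the level predicted from free RNA.

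**Figure D2:**
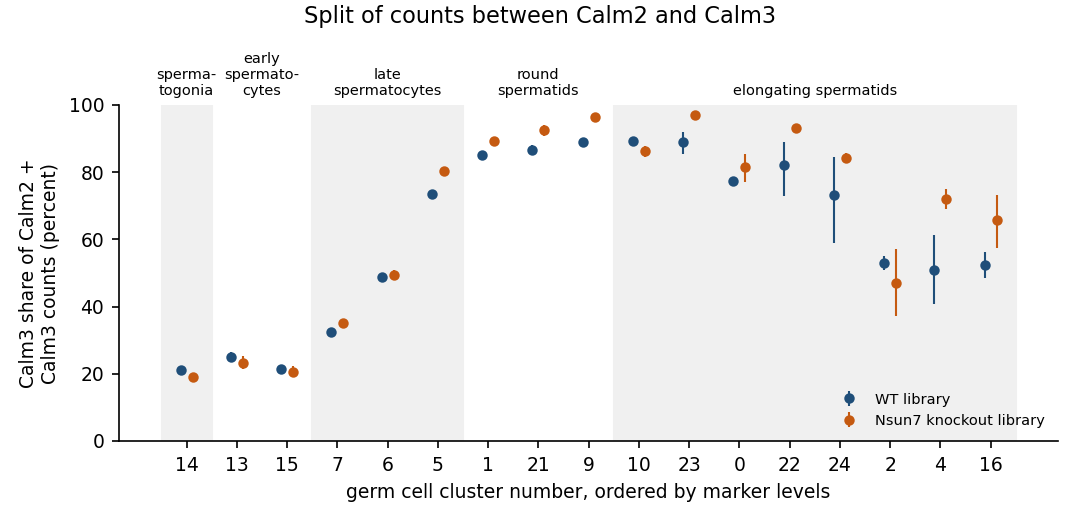
Calm3 as a percent of Calm2 plus Calm3 counts in each germ cell cluster, ordered by marker levels, with WT in blue and the knockout library in orange; bars are exact 95% intervals. The share is between 18.9% and 24.9% up to cluster 15, passes 50% between clusters 6 and 5, and stands at 85.2% and 89.4% in cluster 1.

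Among germ cells, Camk4 RNA was highest after meiosis, lower in spermatogonia and lowest in late spermatocytes. The gene (ENSMUSG00000038128.7) lies on the plus strand of chromosome 18, bases 32934931 to 33191228 of GRCm38, and overlaps 2 genes of the other strand, 2310026I22Rik and Gm22814. In WT it stood at 34.0 CPM in spermatogonia (29.9 to 38.5), 10.7 CPM in early spermatocytes (8.80 to 13.0), 6.92 CPM in late spermatocytes (6.32 to 7.56), 119 CPM in round spermatids (116 to 123) and 120.0 CPM in elongating spermatids (117 to 123). The knockout values were 39.4, 12.4, 9.90, 133 and 137 CPM. Spermatids were high and spermatocytes low in both libraries, and the 2 spermatid classes overlapped in their intervals within each library. From late spermatocytes to round spermatids the level went up 17.2-fold in WT (15.7 to 18.9) and 13.5-fold in the knockout library (11.3 to 16.3). A rise of 4-fold or more was seen for 16.7% of all genes measured in each library.

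Most Camk4 counts in late spermatocytes were at the level of free RNA, with 4.48 of 6.92 CPM predicted in WT late spermatocytes and 7.14 of 9.90 CPM in the knockout ones. In spermatogonia 8.71 of 34.0 CPM were predicted in WT and 9.55 of 39.4 CPM in the knockout library. Cluster 5, the last of the late spermatocytes, held 8.23 and 10.5 CPM, and the next cluster in marker order, round spermatid cluster 1, held 103 and 107 CPM. Cluster 21 was the highest at 172 CPM in WT (158 to 188) and 184 CPM in the knockout library (163 to 207). In the elongating clusters from 10 to 4 the level stayed between 86.6 and 148 CPM in WT and between 100 and 153 CPM in the knockout library. It was lower in cluster 16, at 23.6 and 19.2 CPM. In WT cluster 4 it was 86.6 CPM (66.6 to 111), below the 148 CPM (141 to 155) of cluster 10.

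From late spermatocytes to elongating spermatids of WT, Calm2 was 19.0-fold lower (18.4 to 19.6), Calm3 4.42-fold lower (4.34 to 4.49) and Camk4 17.3-fold higher (15.8 to 19.0). At 4-fold or more, 2 of the 3 were lower, against 45.4% of all genes measured, and 1 was higher, against 18.6%. The median gene of that comparison was lower by a log2 ratio of -1.62. In the knockout library the values were 61.7-fold lower, 4.53-fold lower and 13.9-fold higher, with 46% and 18.4% of genes past 4-fold. Of the 3 genes, Calm3 lay closest to the median gene in WT. Less predicted free RNA, the WT log2 ratio of late over elongating spermatids was 6.16 for Calm2 and -5.57 for Camk4, against 4.25 and -4.12 as measured.

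Every cell was also thinned to 1000 counts, which left out 0 cells. In WT, shares of cells with a count then gave the same order of late spermatocytes, round and elongating spermatids. In WT, 57.2% of late spermatocytes (55.5 to 58.8), 13.8% of round spermatids (12.4 to 15.3) and 6.72% of elongating spermatids (6.01 to 7.48) had a Calm2 count. For Calm3 the shares were 61.7%, 49.1% and 15.0%. For Camk4 they were 0.844%, 9.15% and 9.93%, with 0.612% in Leydig-like cells (2 of 327 cells), taken as the background for a spermatid RNA. Unthinned, 56.2% of WT round spermatids and 10.7% of WT Leydig-like cells had a Camk4 count, at medians of 9377 and 10473 counts per cell. After thinning, 60.3% of WT spermatogonia and 57.6% of WT early spermatocytes had a Calm2 count. The CPM peak of Calm2 in early spermatocytes was thus not seen in these shares. In the thinned knockout library Camk4 shares were 12.1% in round and 11.3% in elongating spermatids, with overlapping intervals.

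Calml4, Calml3, Calm4 and Calm5, further genes of the family, were low in germ cells. Calml4, a calmodulin-like gene known from the brush border of epithelia, was at 0.70 CPM in WT late spermatocytes, 6.67 CPM in round spermatids and 17.9 CPM in elongating spermatids, and the knockout values were 1.05, 12.7 and 20.1 CPM. It was higher in stroma-like cells, at 50.6 and 80.4 CPM. The levels of Calm4, Calml3 and Calm5, of which Calm4 and Calm5 are known from skin, reached at most 1.15, 0.368 and 0.0157 CPM in any class. Of these 4 genes only Calml4 passed 2 CPM in any class.

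In somatic cells Calm2 exceeded Calm3 in counts. Sertoli-like cells, the nurse cells of the tubule, held 920 CPM of Calm2 and 287 CPM of Calm3 in WT and 636 and 270 CPM in the knockout library. Leydig-like cells, which make testosterone, held 360 and 252 CPM in WT and 289 and 204 CPM in the knockout library. Stroma-like cells held 517 and 216 CPM in WT, and macrophage-like cells 503 and 271 CPM. Predicted free RNA was 198 CPM for Calm2 and 189 CPM for Calm3 in these stroma-like cells. It was 176 and 168 CPM in these macrophage-like cells. Calm3 in WT stroma-like cells was thus close to the predicted level, while knockout stroma-like cells held 186 CPM with 61.0 CPM predicted. For Nsun7 in WT stroma-like cells the prediction of 51.6 CPM exceeded the measured 23.0 CPM. The estimate can therefore be too high in this class and does not place Calm3 there at free RNA. The Calm3 share lay between 23.8% and 41.2% in the 4 somatic classes of WT and between 27.7% and 41.5% in the knockout library, below the share in round spermatids. In Calm3, Sertoli-like, spermatogonia-like, macrophage-like, Leydig-like, elongating spermatid-like and stroma-like cells of WT overlapped in their intervals from each to the next.

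Camk4 was low outside spermatids, with 9.14 CPM in WT Leydig-like cells, 17.3 CPM in stroma-like cells, 22.1 CPM in Sertoli-like cells and 53.1 CPM in macrophage-like cells. The knockout values were 12.8, 11.8, 52.1 and 78.4 CPM. Macrophage-like cells were the highest somatic class in both libraries, with an interval that overlapped that of Sertoli-like cells in the knockout library, and with 17.6 and 21.6 CPM predicted as free RNA. RNA of spermatids was also high in these cells: the 10 elongating spermatid markers summed to 75144 CPM in WT and 112358 CPM in knockout macrophage-like cells, all 10 above 10 CPM and 0 of them at 0. Their part in the Camk4 counts was not tested.

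Between the libraries, Calm2 was the member with the largest ratio in the spermatids. A gene was counted as apart when its ratio, with 5 CPM added to both levels, reached 1.5-fold and its mean was at least 10 CPM. By this rule 1 of 3 members was lower in knockout round spermatids, against 14.6% of all genes, and 0 were higher, against 5.96%. In elongating spermatids 1 of 3 was lower, against 8.01%, and 0 higher, against 0.0214%. In late spermatocytes 2 members passed the minimum and 0 were apart, against 0.162% lower and 2.88% higher. In spermatogonia 0 of 3 were apart, against 2.79% lower and 1.33% higher. Since these contrasts were in view when the genes were listed, nothing is read from the counts.

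In round spermatids Calm2 was at 114 CPM in WT against 51.1 CPM in knockout cells, a level 2.24-fold lower (2.10 to 2.39). Its ratio was the second lowest of 3456 genes with a mean of 50 CPM or above. Cluster by cluster, it was at 133 and 90.9 CPM in cluster 1, 90.0 and 46.1 CPM in cluster 21 and 73.0 and 22.7 CPM in cluster 9. The knockout value was the lower in each, and the gap widened from cluster 1 to cluster 9. Predicted free RNA was 47.6 CPM in WT and 10.4 CPM in knockout round spermatids, since Calm2 made up 653 CPM of all WT counts and 159 CPM of all knockout counts. Less that prediction, 85.7 and 81.2 CPM remained in cluster 1, 38.0 and 30.2 CPM in cluster 21 and 26.8 and 12.4 CPM in cluster 9. The cluster with the most cells, cluster 1 with 1510 in WT and 797 in the knockout library, then gave nearly equal levels.

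The mix of stages differed too. Cluster 9, the round spermatid cluster with the most Tnp1, held 492 of 2263 WT and 845 of 1881 knockout cells, and the 10 elongating spermatid markers summed to 51429 CPM in WT and 102393 CPM in knockout round spermatids. Without cluster 9, which was left out after its values were seen, the log2 ratio was -0.60 in place of -1.16. It was -0.72 less predicted free RNA, -0.78 at the same cluster mix in both libraries and -0.31 with the libraries clustered separately. Each of these settings left Calm2 lower in the knockout library, by amounts that differed widely.

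In elongating spermatids Calm2 was at 64.0 CPM in WT against 15.9 CPM in knockout cells, a level 4.02-fold lower (3.81 to 4.24). Predicted free RNA was 47.7 CPM and 9.01 CPM, and 16.2 and 6.92 CPM remained without it. The class is held by different clusters in the libraries: most of its WT cells are in clusters 2 (1530), 0 (1396) and 16 (850), and most of its knockout cells in clusters 24 (1723), 4 (1716), 22 (1483) and 23 (1415). In the clusters with over 100 cells of each library, cluster 10 gave 76.0 and 79.6 CPM, cluster 4 gave 66.0 and 11.9 CPM and cluster 16 gave 72.0 and 21.3 CPM. Less predicted free RNA, 29.9 and 68.0 CPM remained in cluster 10, 10.9 and 2.86 CPM in cluster 4 and 3.4 and 1.98 CPM in cluster 16. In cluster 2, with 1530 WT but 44 knockout cells, Calm2 was at 59.6 and 90.3 CPM. Cluster 0, with 73 knockout cells, gave 60.7 and 46.3 CPM. Clusters 22, 23 and 24, with 30, 37 and 32 WT cells, gave 47.5 and 14.9, 64.3 and 15.1, and 37.6 and 12.3 CPM. The measured knockout level was thus lower in clusters 0, 4, 16, 22, 23 and 24 and higher in cluster 2. In cluster 10 it was within the counting interval of WT before the subtraction. Less predicted free RNA, the knockout level was higher in clusters 0, 2 and 10. In clusters 4, 16, 22, 23 and 24 the WT prediction lay inside the counting interval of the WT level, so no direction is read there. In WT cluster 23, for example, 61.4 CPM were predicted and 64.3 CPM measured (46.3 to 86.9).

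**Figure D3:**
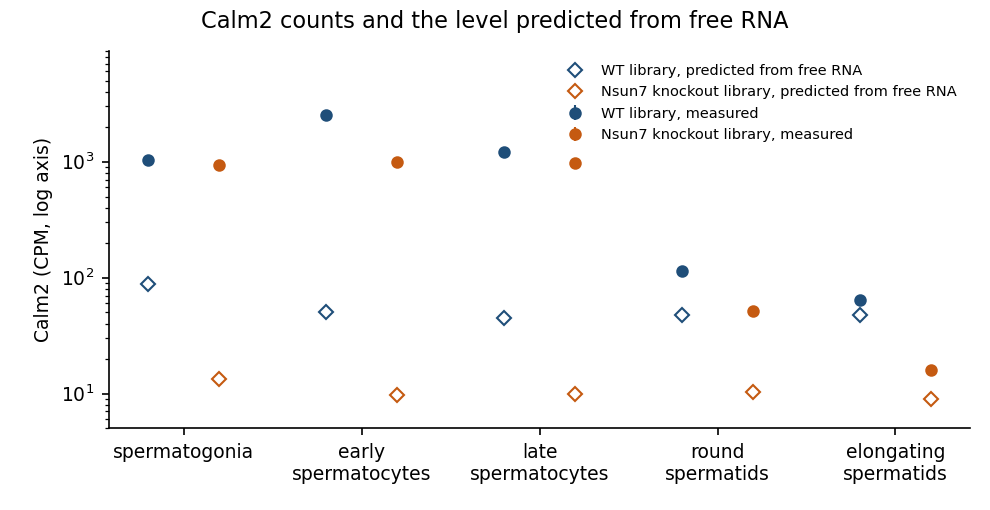
Calm2 in CPM (log axis) in the 5 germ cell classes of WT (blue) and the knockout library (orange), as filled circles with 95% Poisson intervals, beside the level predicted from free RNA as open diamonds. The measured levels are 114 and 51.1 CPM in round spermatids and 64.0 and 15.9 CPM in elongating spermatids, with 47.7 and 9.01 CPM predicted in the latter.

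Before the spermatid stages the size of the Calm2 difference depended on the class. It was 1.09-fold lower in knockout spermatogonia (1.05 to 1.14) and 1.24-fold lower in late spermatocytes (1.21 to 1.26), where clustering each library on its own turned the log2 ratio from -0.31 to 0.08. By cluster the late spermatocyte values were 2451 and 1885 CPM in cluster 7, 1192 and 1169 CPM in cluster 6 and 338 and 212 CPM in cluster 5. Early spermatocytes were 2.55-fold lower in Calm2 and 2.55-fold lower in Calm3, so that 2 of 3 members were apart, against 19.2% of genes lower and 19.1% higher. This class mixes 2 stages: cluster 15 was 395 of 1276 WT cells and 70 of 474 knockout cells. Within cluster 13 the knockout level was 0.837 of the WT level for Calm2 and 0.761 for Calm3, and within cluster 15 it was 0.796 and 0.760.

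Calm3 differed little between the class sums of the libraries in late spermatocytes, round and elongating spermatids. In round spermatids it was at 708 CPM in WT against 660 CPM in knockout cells, a level 1.07-fold lower (1.05 to 1.09). Its log2 ratio there was -0.10 and became 0.27 under trimmed mean scaling and 0.02 with the libraries clustered separately, so its direction depends on these settings. By cluster it was at 766 and 766 CPM in cluster 1, 586 and 572 CPM in cluster 21 and 596 and 592 CPM in cluster 9, with intervals that overlapped in each. In late spermatocytes it was 1.10-fold lower (1.08 to 1.12), and in elongating spermatids 1.13-fold lower (1.10 to 1.15) with a log2 ratio of -0.17 that became 0.18 under trimmed mean scaling. The scaling itself moved all genes by a log2 of -0.37 in round and -0.35 in elongating spermatids. Single elongating clusters differed more. The knockout level was 0.790 of the WT level in cluster 10 (0.745 to 0.838) and 0.647 in cluster 24. It was 0.446 in cluster 4 and 0.519 in cluster 16. In WT, 52.6 of 68.8 CPM in cluster 4 and 65.5 of 78.8 CPM in cluster 16 were predicted as free RNA. In clusters 0, 2, 22 and 23 the interval of the ratio reached both sides of 1.

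Camk4 was slightly higher in knockout spermatids. In round spermatids it was at 119 CPM in WT against 133 CPM in the knockout library, 1.12-fold higher (1.07 to 1.17). The log2 ratio of 0.16 became 0.53 under trimmed mean scaling, 0.05 at the same cluster mix and -0.21 with the libraries clustered separately, so this direction also depends on the setting. By cluster it was at 103 and 107 CPM, 172 and 184 CPM, and 144 and 147 CPM in clusters 1, 21 and 9, with overlapping intervals in each. In elongating spermatids it was 1.14-fold higher (1.11 to 1.17). In late spermatocytes it was 1.43-fold higher (1.16 to 1.75), at levels where predicted free RNA made up 4.48 CPM in WT against 7.14 CPM in the knockout library.

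**Figure D4:**
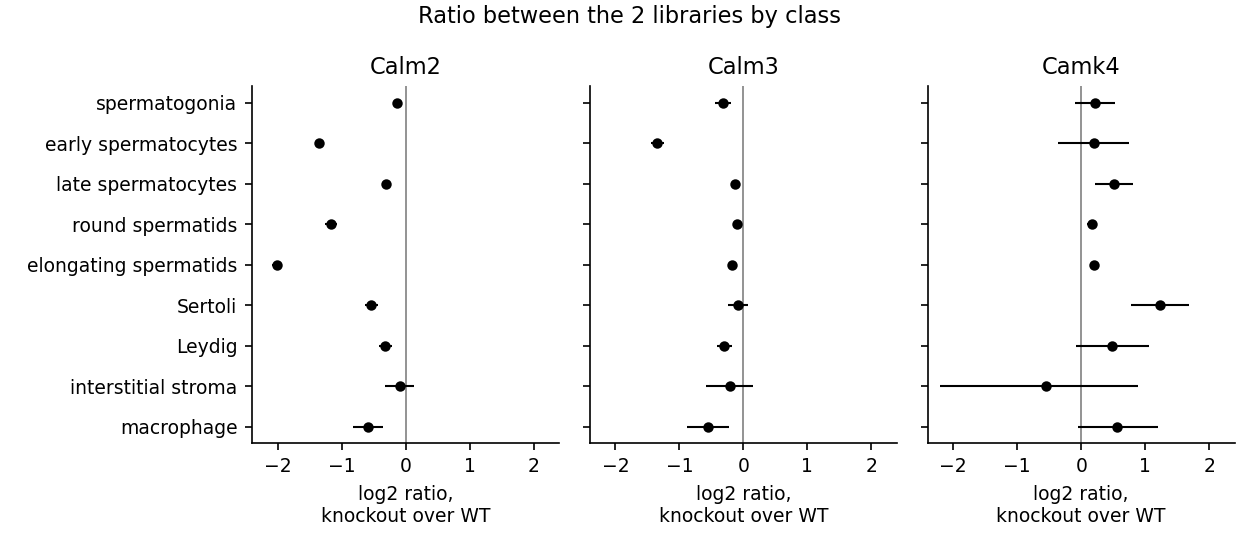
Log2 ratio of the knockout over the WT library for each gene in 9 cell classes; points are ratios of CPM and bars exact 95% intervals of counting error. Calm2 lies below 0 in each class with -1.16 in round and -2.01 in elongating spermatids, Calm3 lies at -0.10 and -0.17 there, and Camk4 at 0.16 and 0.19.

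Somatic cells showed 1 member apart by the same rule. Camk4 was 2.36-fold higher in knockout Sertoli-like cells (1.72 to 3.23), at 22.1 CPM from 80 counts in WT and 52.1 CPM from 88 counts, so 1 of 3 members was higher, against 10.5% of genes, and 0 were lower, against 22.5%. The 10 elongating spermatid markers summed to 24507 CPM in WT and 77166 CPM in knockout Sertoli-like cells, all 10 above 10 CPM and 0 at 0, and their part in the Camk4 ratio was not tested. In Leydig-like cells 0 of 3 were apart (5.9% of genes lower, 0.783% higher), in stroma-like cells 0 of 3 (12.8% and 7.96%) and in macrophage-like cells 0 of 3 (22.9% and 7.33%). Calm2 was 1.45-fold lower in Sertoli-like cells (1.35 to 1.55), and its log2 ratio was -0.32 in Leydig-like and -0.58 in macrophage-like cells. In stroma-like cells its interval reached both sides of 1.

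The partners of calmodulin were read from 6 lists, counted by the same rule. Their values are sums over each class, and the mix of clusters in a class differed between the libraries. Cluster 9 held 492 of 2263 WT and 845 of 1881 knockout round spermatids. A ratio of a list gene therefore cannot be told apart from a difference in stage mix, which was not tested for these genes. Of 22 other calmodulin kinases and their inhibitors, 7 were measured in late spermatocytes and 3 each in round and elongating spermatids. In these classes 0 were higher or lower. Of all genes 2.88% were higher and 0.162% lower in late spermatocytes, 5.96% and 14.6% in round and 0.0214% and 8.01% in elongating spermatids. Phkg2, the catalytic subunit of phosphorylase kinase in testis and liver, went from 501 CPM in late spermatocytes to 460 CPM in round and 983 CPM in elongating spermatids of WT, and from 533 to 518 and 884 CPM in the knockout library. Camk2n1, an inhibitor of CaMKII, stood at 148, 113 and 143 CPM in WT and 145, 98.5 and 129 CPM in the knockout library. Both were thus present in late spermatocytes already, where Camk4 was near free RNA.

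Calcineurin is the calmodulin-dependent phosphatase, and sperm use the isoform built from Ppp3cc and Ppp3r2. Of the 14 genes of its list 4 were measured in round spermatids, where 2 were lower (14.6% of all genes were) and 0 higher (5.96%), with a median log2 ratio of -0.57, against -0.29 for all genes. Ppp3cc went from 225 CPM in WT to 147 CPM in the knockout library and Ppp3ca from 105 to 63.4 CPM. Ppp3r2 was at 595 and 468 CPM. In late spermatocytes Ppp3r2 was at 1097 and 1050 CPM and 0 of 4 were apart (2.88% of all genes higher, 0.162% lower). In elongating spermatids 0 of 4 were apart (0.0214% of all genes higher, 8.01% lower). Like Calm3, Ppp3r2 fell from late spermatocytes to elongating spermatids, to 211 and 190 CPM.

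Of the 6 cyclic nucleotide enzymes that calmodulin regulates, the phosphodiesterases Pde1a and Pde1c were measured in the late classes. Pde1c was at 343 CPM in late spermatocytes, 156 CPM in round and 23.6 CPM in elongating spermatids of WT, and at 348, 102 and 13.0 CPM in the knockout library. Pde1a took the other direction between late spermatocytes and round spermatids, with 70.4, 358 and 274 CPM in WT and 95.7, 328 and 292 CPM in the knockout library. By the rule 1 of 2, Pde1c, was lower in knockout elongating spermatids, where 8.01% of all genes were. In late spermatocytes 0 of 2 were apart (2.88% of all genes higher, 0.162% lower), and in round spermatids 0 of 2 (5.96% and 14.6%).

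Among 32 IQ motif and other calmodulin-binding proteins, 19 were measured in late spermatocytes (3 higher, 0 lower), 18 in round spermatids (2 higher, 2 lower) and 14 in elongating spermatids (0 and 0). Of all genes 2.88% were higher and 0.162% lower in late spermatocytes, and 5.96% higher and 14.6% lower in round spermatids. In elongating spermatids 0.0214% were higher and 8.01% lower. Medians were 0.09, -0.32 and -0.05, against -0.03, -0.29 and -0.06 for all genes. The spermatid genes Iqcf1 and Iqcf3 were higher in the class sum of knockout round spermatids, which holds more late cells. Iqcf1 was at 421 and 717 CPM and Iqcf3 at 1579 and 2420 CPM. In elongating spermatids Iqcf3 was at 4989 and 4993 CPM. Iqcg, a protein of the sperm tail that binds calmodulin, was lower in knockout round spermatids at 75.5 and 42.6 CPM.

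The Crem list holds the factors on which CaMKIV is known to act, and their partners. Of 13 genes 7 were measured in late spermatocytes (0 apart), 5 in round spermatids (1 higher, 0 lower) and 5 in elongating spermatids (0 apart). The median log2 ratio in round spermatids was -0.01, against -0.29 for all genes, of which 5.96% were higher and 14.6% lower. In late spermatocytes 2.88% of all genes were higher and 0.162% lower, and in elongating spermatids 0.0214% and 8.01%. Crem itself went from 336 CPM in late spermatocytes to 506 CPM in round and 88.7 CPM in elongating spermatids of WT, and stood at 362, 349 and 71.7 CPM in the knockout library. Fhl5, the coactivator of CREM in spermatids, went from 21.0 to 502 and 311 CPM in WT and from 31.8 to 765 and 363 CPM in the knockout library, and was the 1 higher gene of round spermatids. Creb3l4, a spermatid factor of the same superfamily, was at 922 and 1003 CPM in round spermatids. Fhl5 and Creb3l4 RNA, like Camk4 RNA, were thus higher in round spermatids than in late spermatocytes, while Crem RNA was present in both.

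Calcium stores and pumps were 20 genes, of which 11 were measured in late spermatocytes (1 higher, 0 lower), 11 in round spermatids (2 higher, 2 lower) and 9 in elongating spermatids (0 higher, 1 lower). Over all genes 2.88% were higher and 0.162% lower in late spermatocytes, and 5.96% higher and 14.6% lower in round spermatids. In elongating spermatids 0.0214% were higher and 8.01% lower. Calr, the calcium-binding chaperone of the endoplasmic reticulum, was lower in knockout round spermatids at 171 and 107 CPM and in elongating spermatids at 31.7 and 15.4 CPM. Cabs1, a calcium-binding protein of late spermatids, was at 89.4 and 147 CPM in late spermatocytes, 547 and 983 CPM in round spermatids and 2454 and 2242 CPM in elongating spermatids. The part of free RNA in its late spermatocyte counts was not tested. Plcz1, the sperm phospholipase that sets off calcium waves in the egg, was at 540 and 506 CPM in elongating spermatids.

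The genes most like each member over the 18 pairs of class and library were taken by Pearson's r of log2(CPM + 5) among 8811 genes, as a description, since the pairs share 2 libraries. For Calm2 these were Kpnb1, an importin (r = 0.983), Ppp4r3b, Ddx52, Polr3c and Arl6ip1 (r = 0.966). Kpnb1 stood at 217 CPM in late spermatocytes and 27.1 CPM in round spermatids of WT. For Calm3 they were Daw1 (r = 0.981), which takes part in the assembly of axonemal dynein, Samd15, Wdpcp, Mtch2 and Dnah1 (r = 0.968), a dynein heavy chain of the sperm tail. Daw1 went from 92.7 CPM in late spermatocytes to 49.5 CPM in round and 5.15 CPM in elongating spermatids. For Camk4 they were Asb9 (r = 0.969), Rffl, Bcl2l11, Atp8a2 and Prkcq (r = 0.953). Asb9 stood at 9.20 CPM in late spermatocytes, 152 CPM in round and 196 CPM in elongating spermatids. Between the members themselves r was 0.18 for Calm2 and Calm3, -0.76 for Calm2 and Camk4 and -0.15 for Calm3 and Camk4.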

How the data were processed

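Single-cell libraries of 1 WT and 1 Nsun7 knockout testis were analysed from the deposited matrices of raw counts for each gene in each barcode. Per the file headers they come from PISA 0.12, and GRCm38 is the build per the submitters' processing notes. The aligner, the annotation and the counting of strand and of shared reads were not given in the sources used here. Cells with 200 genes or more and at most 20% mitochondrial counts were kept. Doublets (600 WT and 622 knockout cells) were called with Scrublet and kept. Clustering used scanpy 1.11.5: 3000 variable genes per library without Nsun7 and the 3 members, 40 components, 20 neighbours, Leiden resolution 1 (igraph 0.11.9) and no batch correction, giving 25 clusters named from markers; 4 stayed unnamed, 2 of them for over 50% doublets. For each library, a class's summed counts were scaled by their total (CPM). Intervals are exact Poisson, conditional binomial or Clopper-Pearson ones at 95%. Ranks and calls add 5 CPM. Ratio intervals, fold calls and the free RNA estimate were run on counts simulated under their own assumptions. This checks the calculation and not whether the assumptions hold in these cells. Clustering, naming and trimmed mean scaling were not simulated. Coordinates come from GENCODE M21.

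Members and lists were chosen with earlier results of these data known. The genes named are the members, other Calm and Calml genes, list members with the highest counts or extreme ratios, and the 5 most similar genes per member. 1 further gene that this rule selects is not reported here. Cluster order follows marker levels (Sycp3, Piwil1, Tnp1, Prm2), and some limits on naming clusters were set after they were seen. Alternatives were cell filters, doublet removal, resolution 2, clustering by library, free RNA subtraction, totals without 4 protamine and transition protein genes, cells with 3000 counts or more, trimmed mean scaling and equal cluster mix.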

Additional observations from a re-analysis of the deposited data

How the results depend on the processing

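With 1 library per genotype no result has a test, and an alternative is read against the counting interval of the main value. Of 63 alternative values of the main ratios 31 lay inside that interval, 29 outside it and 3 changed sign. For round spermatids the log2 ratio of the knockout over the WT library was, at resolution 2, -0.75 for Calm2 and -0.071 for Calm3. Clustering each library on its own gave -0.31 for Calm2, 0.017 for Calm3 and -0.21 for Camk4, and in late spermatocytes 0.078 for Calm2. Free RNA subtraction gave -0.72 for Calm2 and -0.063 for Calm3. Totals without protamine and transition protein counts gave -0.030 for Calm3 and 0.23 for Camk4. Trimmed mean scaling gave -0.80, 0.27 and 0.53 for Calm2, Calm3 and Camk4, and 0.18 for Calm3 in elongating spermatids. The same cluster mix gave -0.78, -0.0065 and 0.051. Leaving out the cluster with the most Tnp1, chosen after seeing the data, gave -0.60, -0.011 and 0.076.

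For late over elongating spermatids of WT, the log2 ratio was 4.35 for Calm2 and 2.09 for Calm3 at resolution 2, and 4.39 and 2.07 with the libraries clustered separately. Free RNA subtraction gave 6.16, 2.38 and -5.57 for Calm2, Calm3 and Camk4, and totals without protamine and transition protein counts 3.95, 1.85 and -4.41. Of 2 alternatives chosen after seeing the data, counting the Piwil1-rich cluster with late spermatocytes gave 4.46 for Calm2, and leaving out the late spermatocyte cluster with the most Acrv1 gave 4.77, 2.25 and -4.29. The cause of the sign changes was not tested. The stage course kept its direction under each of these settings. No paired analysis was possible because each genotype had 1 library. Free RNA limits the reading of Camk4 in late spermatocytes, where most counts are at its predicted level.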
